A study of Mus musculus with 10 samples.

Results

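The S100 genes encode small calcium-binding proteins that act as dimers, some inside the cell and some after release. S100a8 and S100a9 form the heterodimer calprotectin, an alarmin that chelates metals, signals through receptors such as TLR4 and RAGE, is abundant in neutrophils and is made by stressed squamous epithelium. Other family members are constitutive epithelial proteins that bind annexins, myosin or the cytoskeleton. The 8 genes described here are S100a8 and S100a9 (alarmins), S100a4 and S100a6 (partners of myosin and of the calcyclin-binding protein), S100a10 and S100a11 (annexin partners), and S100a14 and S100a16 (epithelial members). They were chosen by symbol, and all 8 had a row among the 18586 rows of the expression table. All 8 also passed the filter of at least 1 TPM (an abundance scaled by transcript length and then to one sum per library) in at least 4 libraries, which 11630 genes passed.

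Expression was measured by bulk poly(A) RNA-seq in 10 libraries of mouse tongue epithelial primary cultures, made 15 days after transgene induction from cells sorted for H2B-GFP. EY cells carried tetON_E6-E7 and tetON_YAP1S127A, that is, the HPV16 oncogenes E6-E7 and a constitutively active YAP1, both inducible by doxycycline, together with Krt14-CreERT, the transactivator LSL-rtTA and the reporter tetON_H2B-GFP. N cells were from littermates with the driver, transactivator and reporter that lacked both oncogenes. All groups therefore shared Cre under the Krt14 promoter, which is active in basal epithelium, and received tamoxifen and doxycycline. Lines EY3960, EY4028 and EY4174 gave 2 libraries each, 6 in all, and the 4 N libraries all came from the line N4172. Genotype and line cannot be told apart on the N side, and the labels do not say how the libraries of a line were grown. The paper calls the replicates biological. The p-values measure the spread between these libraries, part of which may be technical. In bulk libraries a change in the number of cells that express a gene and a change in RNA per cell cannot be told apart.

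The transgene adds a human YAP1 allele, and how its reads enter the row of mouse Yap1 is not stated, so that this row checks the labels only in part. Yap1 ranged from 34.7 to 57.1 TPM in the EY libraries and from 17.2 to 20.9 TPM in the N libraries, with every EY library above every N library. Read depth behind the TPM is unknown. Between 10852 and 11522 genes reached 1 TPM per library, and mitochondrial transcripts took between 14.1% and 20.5% of each. Basal markers of oral epithelium, Krt5 and Krt14 among them, summed to between 4291 and 7246 TPM in EY and between 5284 and 5973 TPM in N. One N library stood apart for the S100 genes: N replicate 4 was the highest N library in 8 of 8 members, against 35.3% of all tested genes. Results whose call it decides are given with and without it.

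The S100 genes lie on mouse chromosome 3, in the epidermal differentiation complex, which also holds genes of the cornified envelope. In RefSeq's order (GRCm38.p6), S100a14 and S100a16 were neighbours, as were S100a8 and S100a9, and S100a11 and S100a10 came last among the S100 genes. S100a11 lay well apart from S100a8 and S100a9, as the coordinates below show. RefSeq promoter windows of 300 bases (250 before and 50 after the transcription start) were held for 6 of the 8 members, with 7 windows, since S100a16 had 2. S100a10 and S100a14 had no window in the table. The 3 windows below are those of the alarmin pair and of S100a11, the only annexin partner with a window. They are shown from 250 bases before to 20 bases after the start, read 5′ to 3′ on the strand of the gene. Capitals mark a match to one of the motifs searched, which are TATAAA in S100a8, TTGCNNAA and TATAAA in S100a9, and TGANTCA in S100a11. They lie at chr3:90668821-90669090 (plus strand), chr3:90695702-90695971 (minus strand) and chr3:93520246-93520515 (plus strand) of GRCm38.p6.
S100a8: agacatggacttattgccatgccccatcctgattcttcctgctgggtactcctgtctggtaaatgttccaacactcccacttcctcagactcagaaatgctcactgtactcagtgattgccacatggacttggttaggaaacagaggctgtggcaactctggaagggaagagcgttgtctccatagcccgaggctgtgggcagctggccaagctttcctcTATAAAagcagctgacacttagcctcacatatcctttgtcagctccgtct
S100a9: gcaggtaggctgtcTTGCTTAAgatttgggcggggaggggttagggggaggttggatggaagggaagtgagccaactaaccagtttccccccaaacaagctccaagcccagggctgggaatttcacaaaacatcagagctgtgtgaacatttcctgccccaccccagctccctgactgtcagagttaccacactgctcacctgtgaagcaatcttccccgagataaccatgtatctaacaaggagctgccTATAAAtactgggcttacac
S100a11: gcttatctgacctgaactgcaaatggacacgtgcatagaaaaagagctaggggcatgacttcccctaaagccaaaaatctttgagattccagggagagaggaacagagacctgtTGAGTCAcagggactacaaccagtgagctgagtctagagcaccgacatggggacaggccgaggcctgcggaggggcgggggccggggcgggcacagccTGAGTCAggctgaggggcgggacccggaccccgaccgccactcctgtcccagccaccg

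The TEAD motif, GGAATG on either strand and the binding site of YAP's DNA-binding partners, was in the windows of 0 of the 6 members and in 14.7% of all 32851 promoter windows. Outside the members, windows of the S100 genes S100a3 and S100a7a held it. The AP-1 motif, TGANTCA on either strand, was in 2 of the 6 members and in 7.81% of all windows. S100a11 held it at positions -136 and -38 relative to the start, and S100a16 at -192 in its second window. The C/EBP motif, TTGCNNAA on either strand, was in 1 of the 6, S100a9, at position -236, and in 10.8% of all windows. The TATA box, TATAAA on the strand of the gene, was searched after the sequences had been seen. It began at -30 in S100a8, at -31 in S100a4 and at position 1 in S100a9, and 8.32% of all windows held it. No motif matches overlapped in the printed windows. Such matches describe the letters and not binding.

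Whether S100 transcripts differ once both oncogenes are on was addressed by setting EY against N. All 8 members had a higher mean in EY than in N, but only the alarmin S100a8 was called, at a log2 fold change beyond 1 in size with an adjusted p under 0.01 (limma on log2(TPM + 1), Benjamini-Hochberg adjusted over all tested genes), against 1.85% of tested genes that were called higher in EY. That call was lost when line was a random block (adjusted p of S100a8 0.0719 by limma) and on line means (0.584). At an adjusted p under 0.01 with no demand on size, 3 members were higher, S100a8, S100a10 and S100a14, against 6.84% of all genes. The median log2 fold change was 0.46 over the members and 0.03 over all tested genes. Every EY library lay above every N library in 3 members, S100a8, S100a9 and S100a14, against 11.3% of tested genes. Without N replicate 4, 1 member was again called, but it was S100a9 in place of S100a8, against 2.01% of genes, and 4 members passed an adjusted p under 0.01, against 7.52%. The separation of all EY from all N libraries then held in 6 members, against 16.6% of genes. N replicate 4 was the highest N library in all 8 members. Leaving it out therefore had to raise every estimate and could only add separated members. The shares of all genes carry no such choice, so these counts are a description and not further evidence.

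**Figure D1:**
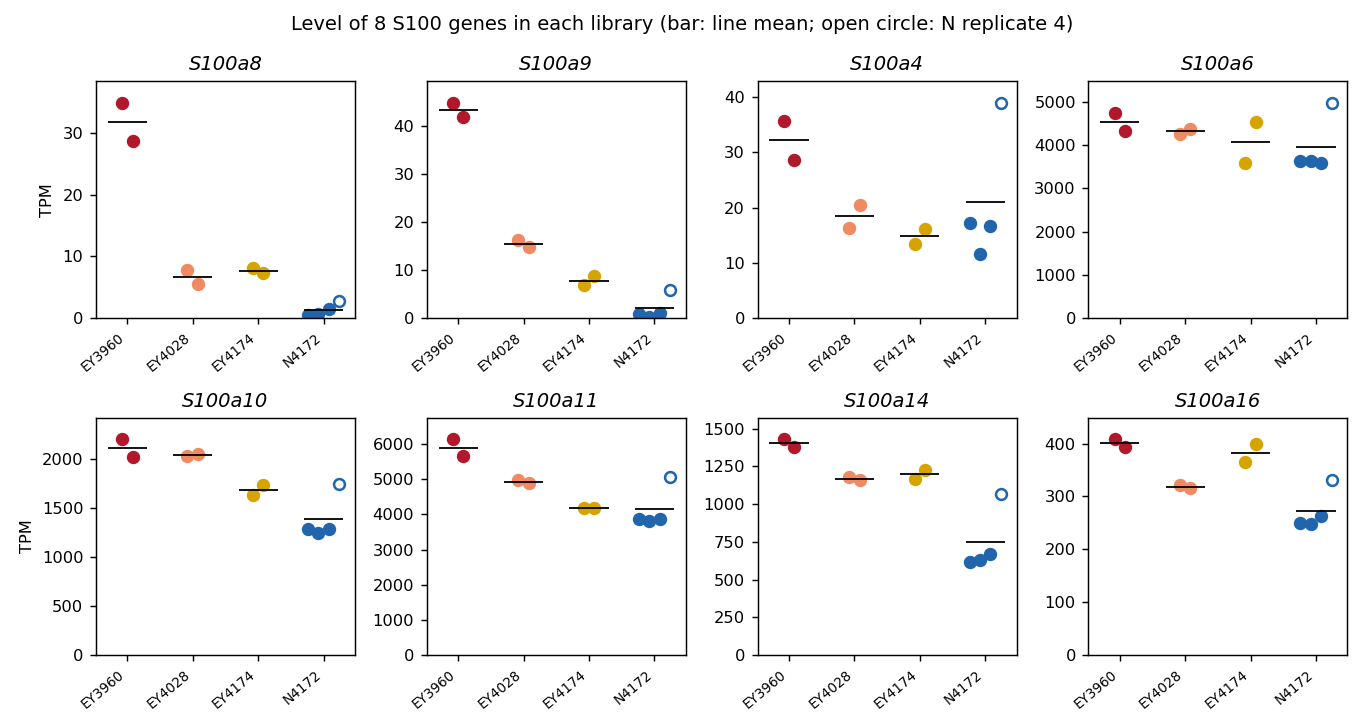
TPM of each of the 8 S100 genes (vertical axes, linear from 0) in each library, by line (horizontal axis); points are libraries, bars are line means and the open circle is N replicate 4. EY3960 has the highest EY line mean in 8 of 8 genes, and N replicate 4 is the highest N library in 8 of 8.

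S100a8, the calcium-binding alarmin subunit, had 34.9 and 28.7 TPM in EY3960, 7.78 and 5.54 TPM in EY4028, and 8.13 and 7.33 TPM in EY4174. In N replicates 1 to 4 it had 0.600, 0.653, 1.59 and 2.82 TPM. Every EY library was above every N library, and EY3960 was far above the other EY lines. The means were 15.4 ± 12.9 TPM across the 6 EY libraries and 1.41 ± 1.04 TPM across the 4 N libraries (SD), a ratio of 10.9. On the log2(TPM + 1) scale, which understates changes of genes with few TPM, the fold change was 2.52 ± 0.54 (SE, 95% interval 1.30 to 3.73, limma adjusted p = 0.00906). Without N replicate 4 the ratio was 16.3 and the log2 fold change 2.77 ± 0.59, with an adjusted p of 0.0108. The call thus rested on a margin close to the threshold, and 11 of 24 alternative settings kept it.

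S100a9, its calprotectin partner, had 44.9 and 41.9 TPM in EY3960, 16.2 and 14.8 TPM in EY4028, and 6.93 and 8.71 TPM in EY4174. The N replicates had 0.994, 0.360, 1.15 and 5.92 TPM in the same order. EY and N did not overlap, although N replicate 4, the highest N library, was close to the lower EY4174 library. The means were 22.2 ± 16.8 TPM (SD, n = 6) in EY and 2.10 ± 2.56 TPM (SD, n = 4) in N, a ratio of 10.6. The log2 fold change was 2.88 ± 0.63 (SE, 95% interval 1.46 to 4.31), with a limma adjusted p of 0.0107, so that S100a9 was not called. Without N replicate 4 the ratio of means was 26.7 and the log2 fold change 3.37 ± 0.59, with an adjusted p of 0.00466. Among the 24 alternative settings, 9 called it.

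The 2 alarmins moved together across libraries. Pearson's r of their log2(TPM + 1) over the 10 libraries, which share 4 lines, was 0.957, as a description. High values were not particular to this pair. S100a9 had 0.965 with S100a10 and 0.945 with S100a14, while S100a8 had 0.915 with S100a14 and 0.517 with S100a4. The ratio of S100a8 to S100a9 lay between 0.376 and 1.17 in EY and between 0.476 and 1.81 in N, so that neither genotype had a fixed excess of one subunit. Their median rank was 7567 for S100a8 and 6772.5 for S100a9 among the 18586 rows, the lowest of the 8 members.

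The other 6 members were abundant or moderately expressed in both genotypes. S100a11, an annexin A1 partner, and S100a6 had median ranks of 24 and 27 among all rows, S100a10 of 112, S100a14 of 147.5, S100a16 of 381 and S100a4 of 4633. The 8 members together took between 1.10% and 1.50% of the TPM in EY libraries. They took between 0.958% and 0.972% in N replicates 1 to 3 and 1.32% in N replicate 4, which lay inside the range of EY.

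S100a10, which carries no functional calcium site and joins annexin A2 in a plasminogen-binding tetramer, had 2199 and 2024 TPM in EY3960, 2034 and 2047 TPM in EY4028, and 1632 and 1729 TPM in EY4174. In N it had 1280, 1247, 1288 and 1748 TPM. Replicate 4 of N was above both EY4174 libraries, and every other N library was below all EY libraries. The log2 fold change was 0.49 ± 0.11 (SE, 95% interval 0.24 to 0.74, limma adjusted p = 0.00923), below the threshold on size. Without N replicate 4 it was 0.60 ± 0.10, with an adjusted p of 0.00149.

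S100a14, an epithelial S100 protein, had 1430 and 1378 TPM in EY3960, 1177 and 1161 TPM in EY4028, and 1169 and 1227 TPM in EY4174. The N libraries had 616, 632, 671 and 1071 TPM. All EY libraries were above all N libraries. The means were 1257 ± 117 TPM across the 6 EY libraries and 747 ± 217 TPM across the 4 N libraries (SD). The log2 fold change was 0.78 ± 0.14 (SE, 95% interval 0.47 to 1.10, limma adjusted p = 0.00239) and 0.97 ± 0.08 without N replicate 4, with an adjusted p of 4.31e-05, again under the threshold of 1 on size.

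S100a16, which dimerizes with S100a14, had 408 and 393 TPM in EY3960, 321 and 316 TPM in EY4028, 365 and 399 TPM in EY4174, and 250, 249, 263 and 331 TPM in N. Only N replicate 4 overlapped EY, above both EY4028 libraries. Its log2 fold change was 0.43 ± 0.10 (SE, 95% interval 0.20 to 0.66, limma adjusted p = 0.0120), and 0.52 ± 0.09 without N replicate 4 (adjusted p = 0.00281). Among the 25 alternatives, 4 gave an adjusted p under 0.01, and 2 of these kept all 4 N libraries.

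S100a11 had 6132 and 5644 TPM in EY3960, 4982 and 4880 TPM in EY4028, and 4193 and 4176 TPM in EY4174, with 3876, 3797, 3873 and 5048 TPM in N. The 4 EY libraries outside EY3960 were below N replicate 4, and all EY libraries were above the other N libraries. The log2 fold change was 0.27 ± 0.12 (SE, limma adjusted p = 0.140), and 0.36 ± 0.12 without N replicate 4 (adjusted p = 0.0499).

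S100a4 and S100a6 did not pass the test in EY against N. S100a4, which binds non-muscle myosin, had 35.7 and 28.7 TPM in EY3960, 16.3 and 20.6 TPM in EY4028, 13.4 and 16.2 TPM in EY4174, and 17.2, 11.7, 16.6 and 39.0 TPM in N. The highest of all 10 libraries was N replicate 4, and the log2 fold change was 0.11 ± 0.35 (SE, 95% interval -0.67 to 0.88, limma adjusted p = 0.855). S100a6 had between 3594 and 4746 TPM in EY and 3638, 3633, 3585 and 4983 TPM in N, again with N replicate 4 the highest of all. Its log2 fold change was 0.13 ± 0.11 (SE, 95% interval -0.10 to 0.36, limma adjusted p = 0.408). Without N replicate 4 the values were 0.44 with an adjusted p of 0.296 for S100a4, and 0.25 with an adjusted p of 0.0565 for S100a6.

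**Figure D2:**
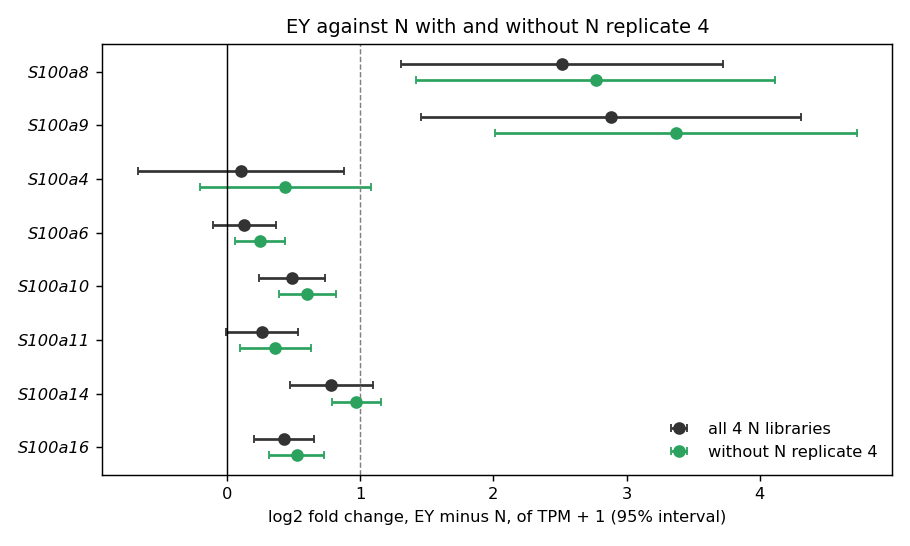
Log2 fold change of EY minus N on log2(TPM + 1) with its 95% interval (horizontal axis) for each S100 gene, with all 4 N libraries (grey) and without N replicate 4 (green); the dashed line marks a log2 fold change of 1. All 8 estimates are higher without that library, as they had to be since it was the highest N library in each gene. The rise is largest in S100a9 (2.88 to 3.37).

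Each line was then set against the 4 N libraries in a model with 4 line means, so that the 3 comparisons share the N libraries. In EY3960, S100a8 and S100a9 were called, at log2 values of 3.85 ± 0.32 (SE, limma adjusted p = 1.66e-05) and 4.14 ± 0.56 (SE, limma adjusted p = 0.00104), against 3.96% of genes called higher in that line. In EY4028 both were called again, at 1.75 (limma adjusted p = 0.00301) and 2.71 (limma adjusted p = 0.00882), against 3.56% of genes. EY4174 called S100a8 at 1.95 (limma adjusted p = 0.00177) and not S100a9 at 1.80 (limma adjusted p = 0.0442), against 2.01% of genes. Both libraries of every EY line lay above all N libraries for both alarmins, and EY3960 had the largest value for each. The other 6 members all stayed short of a log2 fold change of 1 in each line. They ranged from 0.21 (S100a6) to 0.95 (S100a14) in EY3960, from -0.05 (S100a4) to 0.68 (S100a14) in EY4028, and from -0.35 (S100a4) to 0.72 (S100a14) in EY4174, and S100a14 was the highest of the 6 in each. S100a11, the cornified envelope substrate, was at 0.51 in EY3960 (limma adjusted p = 0.00423) and at 0.02 in EY4174, and S100a10 fell in the same order of lines, from 0.62 to 0.57 and 0.29.

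**Figure D3:**
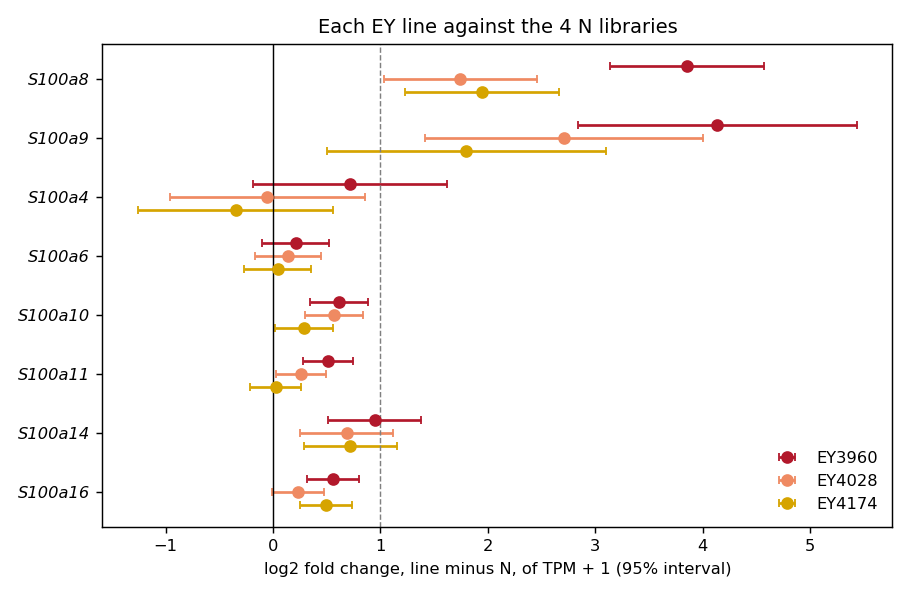
Log2 fold change of each EY line minus N on log2(TPM + 1) with its 95% interval (horizontal axis) for each S100 gene; the dashed line marks a log2 fold change of 1. EY3960 (dark red) lies to the right of the other lines in 8 of 8 genes, most clearly in S100a8 (3.85 against 1.75 and 1.95).

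Leaving out N replicate 4 changed the counts by line. As it was the highest N library in every member, its removal had to raise the estimates of each line. Called members were then 4 in EY3960 (S100a8 at 4.10, S100a9 at 4.62, S100a4 at 1.05 and S100a14 at 1.13), against 4.7% of genes, 2 in EY4028, against 4.12%, and 2 in EY4174, against 2.32%. Both alarmins were the called members in the last 2 lines.

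Among the EY lines themselves, S100a8 was the only member that was called when limma's F test and a gap over 1 between any pair were required, against 5.12% of genes. It was higher in EY3960 by 2.11 than in EY4028 and by 1.90 than in EY4174 (limma adjusted p = 0.00560). This count fell to 0 with a pseudocount of 0.1 or 0.5 and on leaving out any 1 of the 6 EY libraries. S100a9 was 2.34 higher in EY3960 than in EY4174, with an adjusted p of 0.0825 by limma's F test. Without N replicate 4, whose spread enters the same fit, 3 members were called between lines, S100a8, S100a9 and S100a4, against 6.23% of genes, at adjusted p of 1.39e-04, 3.40e-05 and 0.00510 by the same test. EY3960 had the highest mean of the EY lines in 8 of 8 members, against 32.7% of all tested genes.

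The table held 13 S100 genes, the 8 members and S100a1, S100a2, S100a3, S100a7a and S100a13. By limma, 0 of the 4 of these that were tested were called, while at an unadjusted p under 0.05 there were 2 higher and 1 lower in EY, against 21.2% and 16.3% of all tested genes. S100a7a was the 1 of the 4 called without N replicate 4. S100a7a, the mouse relative of human psoriasin, had between 7.39 and 37.0 TPM in EY, 1.79, 1.86 and 2.00 TPM in N replicates 1 to 3, and 14.4 TPM in N replicate 4. Its log2 fold change was 1.79 (limma adjusted p = 0.0533) with all N libraries and 2.40 (limma adjusted p = 0.00406) without replicate 4. S100a13 was at 4.52 ± 1.83 TPM across the 6 EY libraries and 9.17 ± 2.41 TPM across the 4 N libraries (SD), the opposite direction to the 8 members, and all of its EY libraries lay below all N libraries (as in 9.1% of tested genes), with a log2 fold change of -0.95 (limma adjusted p = 0.0408). For S100a2 the log2 fold change was 0.61 (limma adjusted p = 0.329) and for S100a3 it was 0.52 (limma adjusted p = 0.106).

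The intracellular partners of S100 proteins were compared next. By limma, 0 of 12 tested were called, and 6 had an unadjusted p under 0.05, all higher in EY, against 21.2% of all genes. Anxa2, which binds S100a10, had 1752 ± 201 TPM across the 6 EY libraries and 1234 ± 301 TPM across the 4 N libraries (SD), at a log2 fold change of 0.52 (limma adjusted p = 0.0158), and of 0.68 without N replicate 4 (limma adjusted p = 9.65e-04). Its pattern was also the closest to that of S100a10 among 8094 genes with a mean of at least 5 TPM, with a Pearson's r of 0.989 over the 10 libraries. Anxa1, which binds S100a11, was at 2951, 2149 and 1140 TPM in the means of EY3960, EY4028 and EY4174 and 957 TPM in N, with a log2 fold change of 1.03 (limma adjusted p = 0.0353). It was called higher in EY3960 (1.64, limma adjusted p = 1.08e-05) and in EY4028 (1.19, limma adjusted p = 1.31e-04), and between the EY lines (limma adjusted p = 5.20e-04). Anxa11 rose by 0.62 (limma adjusted p = 0.00181) without reaching a change of 1. Myh9, the heavy chain bound by S100a4, had a log2 fold change of 0.59 (limma adjusted p = 0.0162), and Cacybp, the partner of S100a6, had -0.14 (limma adjusted p = 0.236), or -0.24 without N replicate 4 (limma adjusted p = 0.00848).

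Of the receptors and adaptors of S100a8 and S100a9, 0 of 8 tested were called in EY against N by limma, with 1 higher and 2 lower at an unadjusted p under 0.05 (all genes, 21.2% and 16.3%). Tlr4, the endotoxin receptor that also binds the alarmins, was at 6.62 ± 1.66 TPM across the 6 EY libraries and 4.38 ± 0.39 TPM across the 4 N libraries (SD), at adjusted p = 0.0468 by limma. Bsg, which encodes a receptor for S100a9, stood at 622 and 577 TPM. Mcam, another receptor, was lower in EY at 15.7 TPM against 41.1 TPM in N, with a log2 fold change of -1.44 that did not pass (limma adjusted p = 0.0275), but it was called lower in EY3960 (-2.42) and EY4028 (-1.10), as were 3.08% and 2.18% of all genes.

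The genes of plasminogen activation, for which S100a10 is a surface receptor, had EY3960 as the highest EY line mean in 5 of 6, against 32.7% of all tested genes. In EY against N, 0 of 6 were called by limma, and 4 were higher at an unadjusted p under 0.05, against 21.2% of all genes. Plaur, the urokinase receptor, was 0.90 higher (limma adjusted p = 3.45e-04), and Plat, tissue plasminogen activator, 0.99 higher (limma adjusted p = 0.00735), both short of 1. Plat was called without N replicate 4, at 1.08 (limma adjusted p = 0.00949), which made 1 of 6. Plau and Serpinb2, the urokinase and its inhibitor, had larger values of 1.35 and 2.23 but adjusted p of 0.0256 and 0.0149 by limma. In EY3960 4 of the 6 were called higher, in EY4028 2 and in EY4174 0, against 3.96%, 3.56% and 2.01% of all genes.

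Among the other alarmins and epithelial defence genes, 2 of 6 tested were called higher by limma, against 1.85% of all genes. At an unadjusted p under 0.05, 2 were higher and 1 was lower, against 21.2% and 16.3% of all genes. Slpi, an inhibitor of neutrophil serine proteases, went from 24.2 ± 5.73 TPM in N (SD, n = 4) to 383 ± 244 TPM in EY (SD, n = 6), a log2 fold change of 3.73 (limma adjusted p = 4.19e-04). Il1a, the alarmin cytokine interleukin-1 alpha, rose by 1.37 (limma adjusted p = 5.38e-04). Both were called in each of the 3 lines, and both stayed called without N replicate 4. The lower gene was Hmgb1, at a log2 fold change of -0.34 (limma adjusted p = 0.0615). It was at -0.60, -0.39 and -0.04 in EY3960, EY4028 and EY4174. Il1f9 (0.13), Hmgn1 (0.06) and Defb1 (-0.10) had limma adjusted p of 0.775, 0.570 and 0.687.

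Of the transcription factors known to act on S100a8 and S100a9, 0 of 12 were called by limma, 7 were higher and 1 was lower at an unadjusted p under 0.05, and 5 rose and 1 fell at an adjusted p under 0.01. Over all genes, 21.2% were higher and 16.3% lower at that unadjusted p, and 6.84% and 5% at that adjusted p. Junb (0.62), Cebpb (0.64), Klf4 (0.66), Nfkbiz (0.73) and Jun (0.95) were the 5, and Jun no longer passed without N replicate 4 (limma adjusted p = 0.0170). Cebpa, a C/EBP factor of differentiation, fell by 0.96 on the log2 scale (limma adjusted p = 6.44e-04).

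The neighbouring genes of the epidermal differentiation complex, which encode cornified envelope proteins, were set beside the S100 genes. Of 23 tested, 3 were called higher and 2 lower in EY, against 1.85% and 1.7% of all genes, with a median log2 fold change of 1.05 against 0.03 over all genes. The called genes were Pglyrp3 (2.38), a bactericidal peptidoglycan-binding protein, Sprr2a3 (1.23) and Tchh (1.09), and, lower, Lce1g (-1.90) and Lce1f (-1.30). The Sprr2 genes are near-identical copies, and how the counting divided their reads is not known, so their values are uncertain. In EY3960 8 were called higher and 3 lower, with a median of 2.09. In EY4028 4 were called higher and 1 lower with a median of 0.69, and in EY4174 3 higher and 2 lower with a median of -0.01. The shares of all genes called higher were 3.96%, 3.56% and 2.01% in the same order, and those called lower 3.08%, 2.18% and 2.94%.

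The library N replicate 4 also stood apart in these genes. It was above the mean of the other N libraries in 12 of 12 tested S100 genes, by a median of 0.78 on log2(TPM + 1), and in 19 of the 23 neighbours, by a median of 1.26. EY3960 was above the mean of the other EY lines in 12 of 12 S100 genes and in 19 of the 23 neighbours. Shares of all genes were not computed for these means. By the stricter measure of the highest EY line mean, EY3960 led in 2 of the 4 tested S100 genes outside the members. It led in 19 of the 23 neighbours, against 32.7% of all tested genes. It led in 5 of 6 plasminogen activation genes, 6 of 8 receptors and adaptors, and 3 of 6 other alarmin and defence genes. It led in 5 of 12 intracellular partners and 5 of 12 transcription factors. N replicate 4 was the highest N library in 4 of the 4 other tested S100 genes and in 18 of the 23 neighbours, against 35.3%. It was so in 9 of 12 intracellular partners, 4 of 6 plasminogen activation genes and 4 of 6 other alarmin and defence genes. It was so in 4 of 12 transcription factors and 2 of 8 receptors and adaptors. Crct1 and Lce3c, picked after their values were seen, had means of 0.947 and 1.11 TPM in N replicates 1 to 3, and 33.0 and 27.3 TPM in N replicate 4. The part of these differentiation genes in the S100 differences was not tested.

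**Figure D4:**
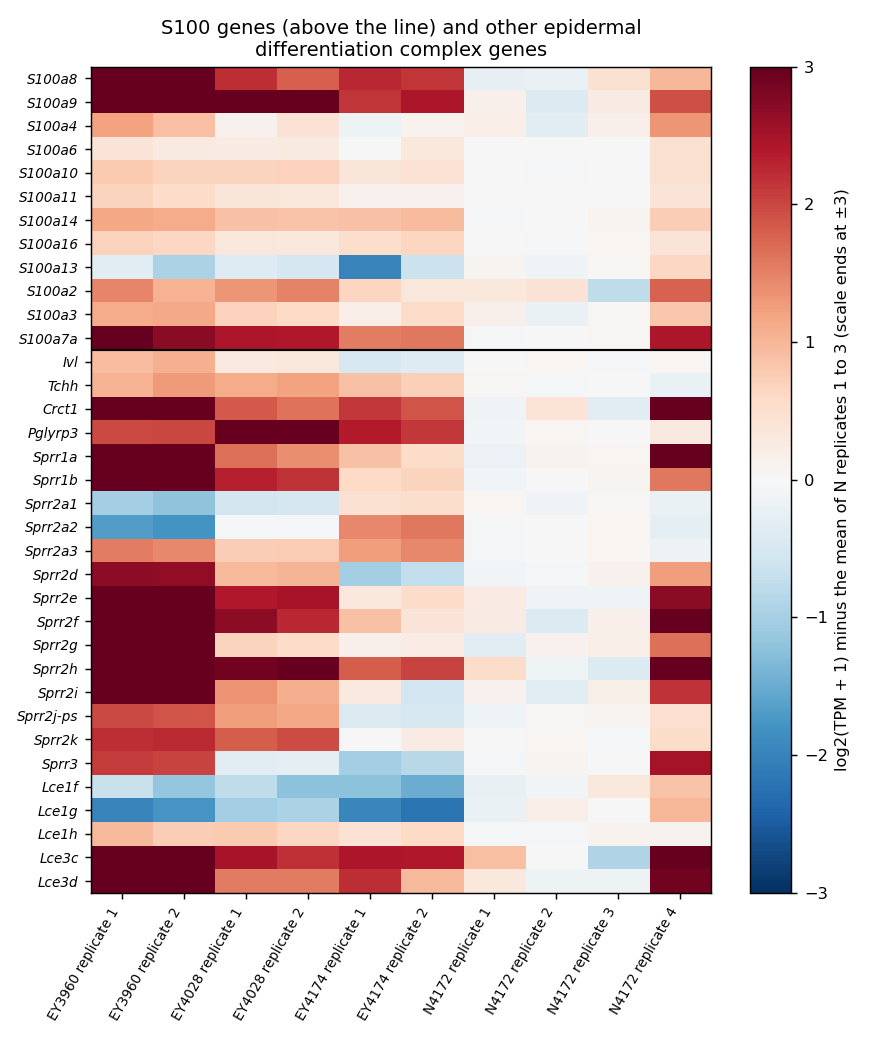
Colour shows log2(TPM + 1) minus the mean of N replicates 1 to 3 (scale ends at 3 on either side) for 12 S100 genes, above the black line, and 23 other genes of the epidermal differentiation complex, below it; columns are the 10 libraries. N replicate 4 and both EY3960 libraries are higher than their group in most rows of both blocks.

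Granulocytes are the main source of S100a8 and S100a9 in tissue, and markers of them were examined. Of 21 granulocyte markers 7 had a row and 1, Stfa3, passed the filter. The summed level ranged from 4.84 to 11.7 TPM in EY and from 2.20 to 3.43 TPM in N, and Ly6g reached at most 1.26 TPM in any library. Stfa3, a stefin A protease inhibitor, was called higher in EY, at 4.69 ± 1.83 against 1.06 ± 0.37 TPM (log2 fold change 1.43, limma adjusted p = 9.39e-04). The pan-leukocyte marker Ptprc was at most 0.347 TPM. Other leukocyte markers summed to between 29.4 and 72.0 TPM in EY and between 42.2 and 69.1 TPM in N, nearly all from Cd68. Fibroblast markers summed to between 0.698 and 3.68 TPM in EY and between 5.80 and 7.60 TPM in N, and melanocyte and Schwann cell markers to between 1.82 and 3.57 TPM and between 9.15 and 26.5 TPM, both lower in EY. Endothelial and muscle markers stayed under 1.2 TPM in sum. Rows were held for 4 of 13 other leukocyte, 3 of 11 fibroblast, 6 of 9 melanocyte and Schwann cell, and 5 of 9 endothelial and muscle markers. Only Twist2 among the fibroblast and Gpnmb among the melanocyte and Schwann cell markers passed the filter, and limma called both lower in EY, at log2 fold changes of -1.32 (adjusted p = 0.00990) and -2.39 (adjusted p = 3.10e-04). Twist2 was not called without N replicate 4 (adjusted p = 0.0250). None of 8 basal and 6 suprabasal markers was called in EY against N by limma. At an unadjusted p under 0.05, 2 were higher and 1 lower among the basal and 0 among the suprabasal markers. Over all genes, 21.2% were higher and 16.3% lower at that p. By line, the suprabasal markers moved apart, and EY3960 had the highest EY line mean in 5 of 6, against 32.7% of all tested genes. Among the basal markers it had the highest in 1 of 8. N replicate 4 was the highest N library in 6 of 8 basal and 6 of 6 suprabasal markers, against 35.3% of all tested genes. In EY3960 the keratins Krt4 (2.44) and Krt16 (1.25) and the differentiation gene Krtdap (1.05) were called higher, against 3.96% of all genes. Krt13, a keratin of the suprabasal oral layers, was called lower in EY4028 (-2.65) and EY4174 (-3.45), and Krtdap in EY4174 (-1.87). Of all genes, 2.18% were called lower in EY4028 and 2.94% in EY4174. Suprabasal markers summed to between 1753 and 2285 TPM in EY, between 1711 and 1883 TPM in N replicates 1 to 3 and 2381 TPM in N replicate 4. The part of these cells in the S100 values was not tested.

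The genes whose pattern was closest to each member, by Pearson's r of log2(TPM + 1) over the 10 libraries, are a description with no test. Beside Anxa2 for S100a10, these were Gpx1 for S100a8 (0.979), Agpat2 for S100a9 (0.990), Sh3bgrl3 for S100a4 (0.953), Ndufv3 for S100a6 (0.956), Sprr2e for S100a11 (0.989), Coa3 for S100a14 (0.992) and Hopx for S100a16 (0.975). The 10 points come from 4 lines and are not independent of line. Within the 8 members, r ran from 0.493 (S100a4 with S100a16) to 0.965 (S100a9 with S100a10), and S100a14 and S100a16 had 0.948.

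The adjusted p of the alarmins and of S100a10 lay near 0.01 under many settings. S100a14 passed an adjusted p under 0.01 in 18 of 25 alternatives and S100a10 in 9. With the demand on size, S100a14 was called in 1 of the 25 and S100a10 in 0. With each line reduced to its mean, which leaves 3 EY values against 1 N value, 0 members were called by limma.

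**Figure D5:**
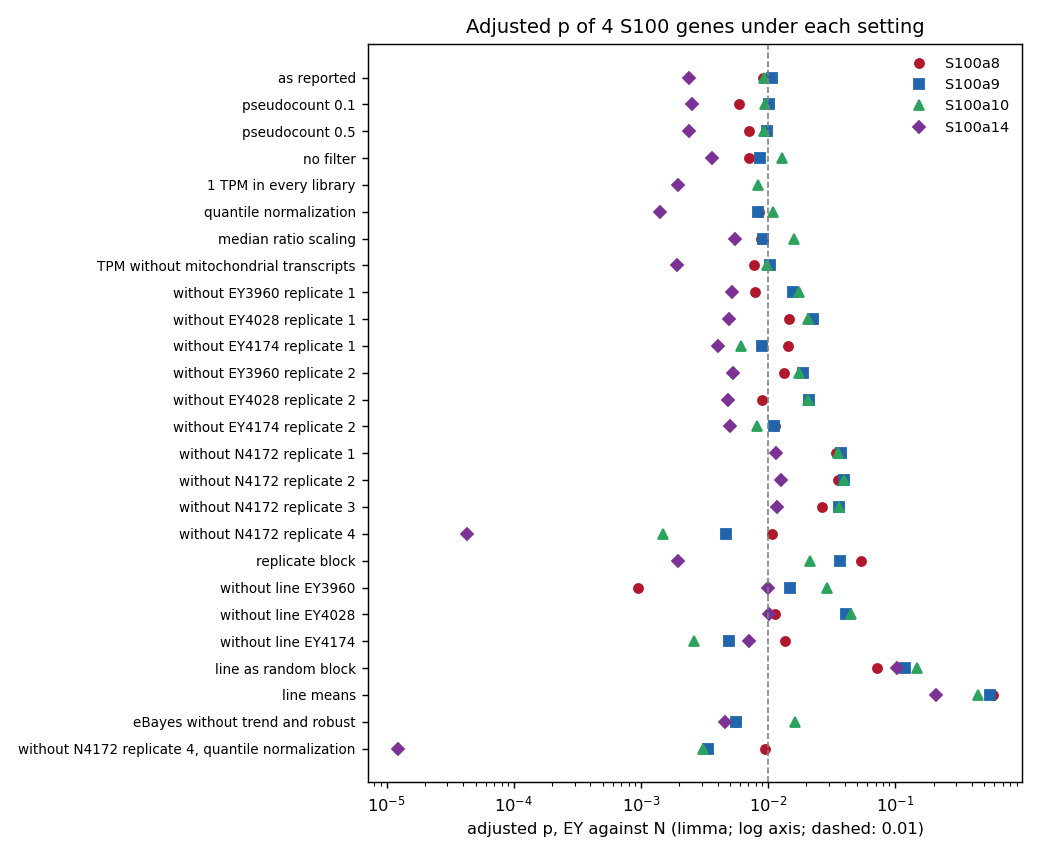
Adjusted p of EY against N (horizontal axis, log scale; dashed line at 0.01) for S100a8, S100a9, S100a10 and S100a14 under the reported setting and each alternative (vertical axis). Points of S100a8 and S100a9 lie on both sides of 0.01, and all 4 genes lie above it when each line is a random block or a single mean.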

How the data were processed

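The deposited values were TPM, as computed by the authors, in a table of 18586 gene symbols. The submitters' processing notes name STAR 2.7.9, SAMtools 1.7, HTSeq 0.13.5, DESeq2 1.34.0 and GRCm39, and the paper's methods describe Kallisto estimates scaled to TPM against a human transcriptome for enrichment analysis. Which of these made the table is not given in the sources used here. TPM carry no depth, so that no count model, counting interval or detection floor was used. Spreadsheet dates stood in place of 20 symbols.

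limma 3.58.1 (R 4.3.3; trend and robust options) was fitted to log2(TPM + 1) over 11630 genes (4 or more libraries at 1 TPM or above), with genotype or with 4 line means, and Benjamini-Hochberg adjustment over all of them. A call needed a log2 fold change beyond 1 in size and an adjusted p under 0.01. The scripts were tested on simulated data. Alternatives changed the pseudocount, filter, scaling, libraries, lines, block and variance model.

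The members and the gene lists were chosen with earlier results of these data known. Named genes were all members, other S100 genes, list genes that were called (otherwise the smallest adjusted p), direct protein partners, and the closest patterns. Motifs were searched in RefSeq promoters (GRCm38.p6). Marker lists of 7 cell types served to look for RNA of other cells.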

Additional observations from a re-analysis of the deposited data

Results flagged for a closer look

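In 30 sets of 4 or 6 library values (the S100 genes and summaries of them within EY or N), 8 had a library far from the rest by Dixon's criterion, where chance gives about 1 in 20, or 1.5. Of these, 7 were N replicate 4. That library had 4983 TPM of S100a6, 1748 TPM of S100a10, 5048 TPM of S100a11, 1071 TPM of S100a14, 5.92 TPM of S100a9 and 14.4 TPM of S100a7a, and the 8 members took 1.32% of its TPM. The sets are not independent, since they are values of the same library. The other library was EY3960 replicate 1, with 37.0 TPM of S100a7a.

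S100a8 differed between the EY lines by up to 2.11 on the log2 scale, EY3960 minus EY4028, by limma's F test (adjusted p = 0.00560). The call was lost with a pseudocount of 0.1 or 0.5 and on leaving out any 1 of the 6 EY libraries.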

How the results depend on the processing

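The log2 fold change of EY against N was above 0 for 7 of the 8 members under every alternative run, and S100a4 was the exception. With 1 member called as reported, 2 were called with a pseudocount of 0.5, no filter, quantile normalization, median ratio scaling, plain eBayes options, or, chosen after seeing the data, quantile normalization without N replicate 4. None was called with at least 1 TPM in every library (S100a8 and S100a9 were then not tested), without line EY4028, with line as a random block, or on line means. Leaving out 1 library gave 0 to 1, with 0 without EY3960 replicate 2, EY4028 replicate 1, EY4174 replicate 2 or N replicates 1, 2 or 3. By line, leaving out 1 library gave 1 to 4 called in EY3960, 0 to 2 in EY4028, 0 to 2 in EY4174 and 0 to 3 between lines. At least 1 TPM in every library gave 0 in each. A pseudocount of 0.1 gave 0 in EY4028 and 0 between lines, and 0.5 gave 1 and 0. The added setting gave 2 in EY4174 and 2 between lines. Where a lone library remained in a line, it was assumed to vary like the other lines.

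Directions turned only in S100a4, S100a6 and S100a11. S100a4 in EY against N was -0.20 without line EY3960 and ran from -0.12 to 0.44 with 1 library left out. In EY4028 it ran from -0.27 to 0.28 and was 0.17 under the added setting. In EY4174, S100a6 ran from -0.12 to 0.21 and S100a11 from -0.016 to 0.12. Quantile normalization gave -0.048 for S100a6 and -0.052 for S100a11, and TPM without mitochondrial transcripts -0.011 for S100a11. The cause was not tested.

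The labels number libraries within a line. Deviations of same-numbered libraries had correlations between -0.148 and 0.102, so that the numbers were not taken to pair them. Each EY line had 2 libraries, whose deviations mirror each other, so a pair of EY lines gave the same correlation for both numbers. Numbers 3 and 4 occurred only in N, so a block on the number in effect set EY against N replicates 1 and 2 alone. Under it, S100a8 had 2.99 (limma adjusted p = 0.0533), and S100a14, at 1.00, was the 1 called member (limma adjusted p = 0.00196). By line, 4 were called in EY3960, 2 in EY4174 and 2 between lines. S100a4 was then 0.35 in EY4028 and 0.054 in EY4174.

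Over all genes, 413 of 11630 were called in either direction as reported, and 295 to 444 with 1 library left out. A pseudocount of 0.1 gave 552, one of 0.5 gave 515, and no filter gave 415 of 18586. Quantile normalization gave 422 and median ratio scaling 412 of 11589. At least 1 TPM in every library gave 216 of 9891, the block 221 and line as a random block 203. By line and between lines, shares of all genes were computed only as reported and without N replicate 4. Depth is unknown, which limits what S100a8 and S100a9 near 1 TPM in N can show.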
